A study of Mus musculus with 15 samples.

Results

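The 48 genes described here encode the enzymes and transporters that build and modify glycosaminoglycans, the long sugar chains that give cartilage proteoglycans their charge. They were chosen by name, as listed genes of 7 steps, from tables of 24134 genes, and all 48 were found in both tables by their Entrez gene IDs. The steps were sulfate and PAPS supply (5 genes), sugar nucleotide supply (7), the linker (6), the chondroitin chain (6), chondroitin and dermatan modification (10), the heparan chain (5) and heparan modification (9). The rule itself used no measured value, but the list was drawn up with earlier results of these data known. Shares of members called, set beside those of all genes, are thus not those of a blind list. RNA was sequenced from primary articular chondrocytes that were isolated from the knees of 4- to 5-day-old ICR mice and used at passage 0, with 3 biological replicates a group. In the siRNA table, siCtrl cells received control siRNA and siTnks/2 cells received siRNAs against both *Tnks* and *Tnks2*, each transfected with METAFECTENE PRO, and the time after transfection is not given in the sources used here. In the drug table, cells were kept for 108 h with DMSO or with 10 μM of XAV939 or IWR-1, a pair of small molecules that inhibit tankyrase, the poly(ADP-ribose) polymerase encoded by *Tnks* and *Tnks2*. Whether replicates came from separate litters or animals is not stated, so p-values measure the spread between these cultures only.

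A glycosaminoglycan chain starts on a serine of a core protein such as aggrecan, with a short linker of xylose, galactoses and glucuronic acid. Addition of N-acetylgalactosamine then commits the chain to chondroitin sulfate, the main type in cartilage, and addition of N-acetylglucosamine commits it to heparan sulfate. Both chains are assembled from UDP-sugars and are sulfated in the Golgi with PAPS, the activated form of sulfate. Cartilage uses so much sulfate that loss of the sulfate transporter *Slc26a2*, of the PAPS synthase *Papss2* or of the sulfotransferase *Chst11* disturbs skeletal growth.

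Libraries held between 26857070 and 36615194 counts on genes, of which the members took 0.38 to 0.71%. All 10 chondrocyte markers (among them *Col2a1*, *Acan* and *Sox9*) lay above 10 CPM in every library, and no marker of endothelial or erythroid cells had enough counts to be tested. The 5 endothelial markers summed to 7.74 CPM in siTnks/2 replicate 2 and to at most 0.888 CPM in any other library. Without siTnks/2 replicate 2, 20 members were called with knockdown (42.6%, against 20.8% of all genes tested). Levels are given as CPM, the counts relative to a library size scaled by TMM within each table, and RPKM are the same values per kilobase of summed exon. DMSO replicate 3 stood apart from the other DMSO libraries by a difference that rose across genes with exon length (Spearman rho 0.57 over 13332 genes, which are not independent), while that of DMSO replicate 2 fell with it (rho -0.535). Replicate 3 of every other group leaned the same way, with rho 0.387 for IWR-1, 0.296 for XAV939, 0.264 for siTnks/2 and 0.184 for siCtrl. The log2 fold change itself had rho -0.196 with exon length for XAV939, -0.006 for IWR-1 and 0.028 for knockdown. *Tnks* fell by 1.81 on the log2 scale with siTnks/2 (SE 0.22, edgeR adjusted p = 0.00569) and *Tnks2* fell by 1.10 (SE 0.11, adjusted p = 0.00384), in the direction of the labels. The chondrocyte markers summed to 27520 to 37170 CPM with DMSO, 37810 to 57370 with XAV939 and 91110 to 115800 with IWR-1, and to 87530 to 117000 with siCtrl and 124600 to 202000 with siTnks/2, with 3, 10 and 3 of the 10 called higher for XAV939, IWR-1 and knockdown. The 6 fibroblast and synovial markers summed to 12500 to 16200 CPM with DMSO, 6542 to 9306 with XAV939 and 6039 to 9539 with IWR-1, and to 5362 to 9266 with siCtrl and 2893 to 8004 with siTnks/2, and 3 of the 6 passed the test as lower with each inhibitor and 0 with knockdown. Of 5 osteoblast markers, 0 were called with knockdown, 2 higher with XAV939 and 3 higher with IWR-1, at sums of 66.7 to 95.8 CPM with DMSO, 87.4 to 102 with XAV939 and 79.1 to 109.9 with IWR-1. Among them, *Sp7* changed by 1.62 ± 0.16 log2 (adjusted p = 0.000168) with XAV939 and 2.47 ± 0.17 (adjusted p = 3.10e-06) with IWR-1. The adipocyte marker *Fabp4* rose with knockdown (0.93 ± 0.24 log2, adjusted p = 0.0387) and fell with XAV939 (-0.60 ± 0.16, adjusted p = 0.0244) and IWR-1 (-1.61 ± 0.16, adjusted p = 3.17e-05), and 2 of 6 leukocyte markers (*Cd68* and *Csf1r*) were lower with IWR-1, at sums of 11.4 to 15.5 CPM with DMSO and 6.66 to 9.22 with IWR-1. Their part in the changes of the members was not tested, and in bulk RNA fewer cells of a type and less RNA per cell cannot be told apart.

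The 15 libraries gave 3 comparisons against a control and 1 between the inhibitors. A gene was called at a Benjamini-Hochberg adjusted p under 0.05 in edgeR's quasi-likelihood test over all genes of its table, and changes are log2 fold changes ± SE. With siTnks/2, 10 of the 47 members tested were called higher (21.3%, against 10.4% of all genes tested) and 6 were called lower (12.8%, against 7.61%). With XAV939, 5 of 46 were higher (10.9%, against 7.57%) and 5 were lower (10.9%, against 9.85%), both near the share of all genes. With IWR-1, 14 of 46 were higher (30.4%, against 16.2%) and 11 were lower (23.9%, against 20.2%). Calls went both ways in each comparison. The median log2 fold change over the members tested was 0.12 for siTnks/2, -0.02 for XAV939 and -0.01 for IWR-1, beside -0.0012, 0.016 and 0.0056 over all genes tested. Without DMSO replicate 3, 11 members were called for XAV939 (23.9%, against 15.3% of all genes tested) and 28 for IWR-1 (60.9%, against 36.4%).

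By step, the medians with IWR-1 were 0.12 for sulfate and PAPS supply, 0.38 for sugar nucleotide supply, 0.37 for the linker and 0.39 for the chondroitin chain. They were -0.36 for chondroitin and dermatan modification, -0.12 for the heparan chain and -0.22 for heparan modification. With XAV939 the medians of the steps in this order were 0.08, -0.16, 0.25, 0.08, -0.12, 0.06 and -0.11. With knockdown the linker had the highest median (0.32), with 6 of 6 genes above 0 and 2 of them called. These medians are descriptions without a test. With the replicate number as a block, since same-numbered libraries deviated together, 29 members were called with knockdown (61.7%, against 34.6% of all genes tested), 20 higher and 9 lower. The block called 19 with XAV939 (41.3%, against 33.4%), 7 higher and 12 lower, and 31 with IWR-1 (67.4%, against 47.5%), 17 higher and 14 lower. DESeq2 kept all calls and added 6 members with knockdown (*Slc35b2*, *Uxs1*, *Gfpt2*, *Chst11*, *Chst15* and *Dse*), 4 with XAV939 (*Ugp2*, *Csgalnact1*, *Chst3* and *Ext1*) and 2 with IWR-1 (*Chst14* and *Sulf2*), each of which the block added too. The knockdown count was 3 without siCtrl replicate 1 (6.38%, against 4.4% of all genes), 4 without siTnks/2 replicate 1 (8.51%, against 5.78%), 6 without siCtrl replicate 3 (12.8%, against 4.91%) and 8 without siCtrl replicate 2 (17.0%, against 6.72%), so calls were lost over all genes as well. Of the 16 members called with knockdown, 1 (*Extl1*) kept its call in all 6 fits that left out 1 library, and *Gfpt1*, *Csgalnact1* and *Sulf1* kept theirs in 5. *Papss2*, *Chst7*, *Chsy1*, *Ust*, *Ugp2*, *Hs6st2* and *Glce* kept theirs in 2. The calls with XAV939 were kept in all 9 such fits for 6 of the 10 members, the others being *Chst15* (8), *Fam20b* (6), *Xylt2* (2) and *Chpf* (2). Those with IWR-1 were kept in all 9 for 22 of the 25 members, the others being *Hs6st2* (7), *Chpf2* (6) and *B3gat3* (4).

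**Figure D1:**
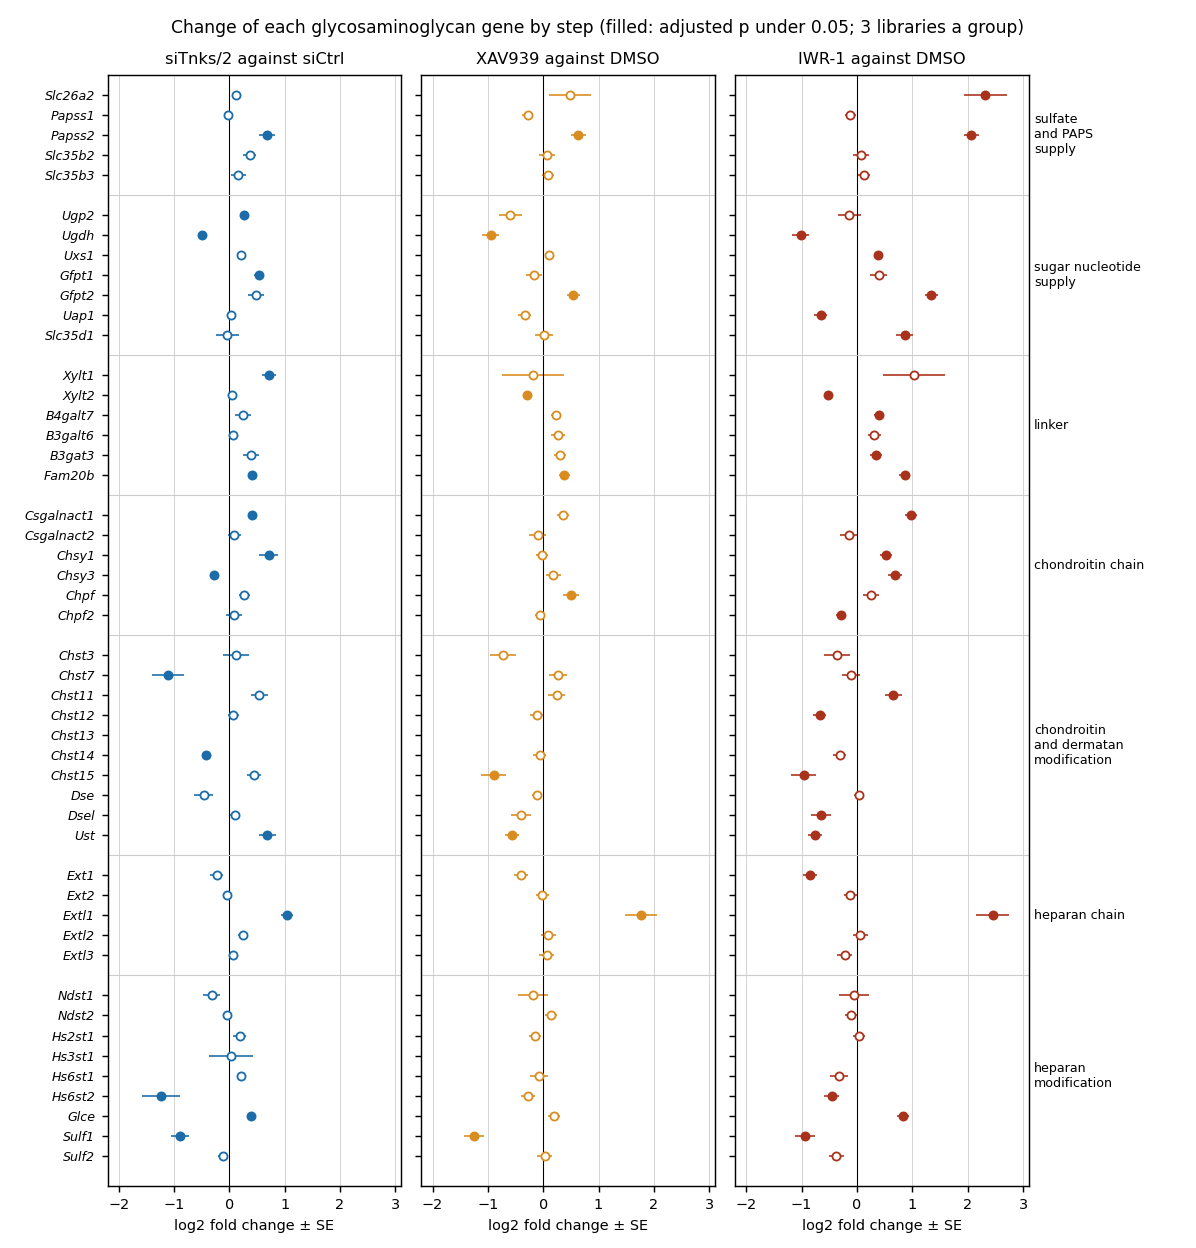
Log2 fold change ± SE of each member (rows, grouped by step) for siTnks/2 against siCtrl, XAV939 against DMSO and IWR-1 against DMSO, with filled points at an adjusted p under 0.05 and 3 libraries a group. *Extl1*, *Papss2* and *Slc26a2* lie farthest to the right with IWR-1 (2.46, 2.07 and 2.32), and points of the 2 modification steps lie mostly left of 0 with the inhibitors.

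Sulfate and PAPS supply was led by *Papss2*, which makes PAPS from ATP and sulfate and is the form of the enzyme that predominates in cartilage. *Papss2* was read at 786, 943 and 803 CPM in the siCtrl libraries and at 1208, 1648 and 1215 CPM in the siTnks/2 libraries. DMSO libraries held *Papss2* at 147, 194 and 195 CPM, XAV939 libraries at 262, 303 and 266 and IWR-1 libraries at 761, 787 and 698. Every treated library lay above every control library of its table, and every IWR-1 library above every XAV939 library. The log2 fold change of *Papss2*, given with its SE, was 0.69 ± 0.15 (adjusted p = 0.0232) with knockdown, 0.63 ± 0.13 (adjusted p = 0.00766) with XAV939 and 2.07 ± 0.13 (adjusted p = 2.97e-06) with IWR-1. The last is a 4.19-fold rise. The study set limits for changed genes at a fold of 3 and an adjusted p of 1e-05. In edgeR, *Papss2* was the only member past these limits, and only for IWR-1. Over all genes tested, 145 passed them for IWR-1, 1 for XAV939 and 0 for knockdown. The study applied its limits in DESeq2, so the edgeR counts are not those of its own list. *Papss1*, the second PAPS synthase, was read at 82.4, 87.6 and 78.3 CPM with siCtrl and 78.3, 87.9 and 77.4 CPM with siTnks/2. DMSO libraries held *Papss1* at 74.9, 75.7 and 74.6 CPM, XAV939 libraries at 53.6, 68 and 63.6 and IWR-1 libraries at 69.5, 69 and 67.8. It was not called in any comparison without the block (log2 fold changes -0.03, -0.28 and -0.13), although all its XAV939 and IWR-1 libraries lay below the DMSO libraries. The fit with the block called it lower with XAV939 at -0.29 log2 (adjusted p = 0.0314).

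Both synthases are compared per length. *Papss2* made up between 88.7 and 89.8% of the summed RPKM of the pair in siCtrl libraries and between 92.7 and 93.9% in siTnks/2 libraries. DMSO libraries lay lower, between 61.7 and 68.2%, whereas XAV939 libraries lay between 77.5 and 80.1% and IWR-1 libraries between 89.4 and 90.4%. The share was thus higher in every treated library than in every control of its table, and its level with IWR-1 was near that of the siCtrl libraries. The 2 tables were normalized separately and differ in culture conditions, so levels are set side by side across them without a test.

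Each gene of this pair has a CG-rich and a CG-poor annotated start. The 250 bases before both starts that the RefSeq table lists for *Papss2* and for *Papss1* are given on the plus strand of GRCm38.p6 (the mm10 build), with every CG dinucleotide in capitals. They are shown because, without the block, *Papss2* was called in all 3 comparisons and *Papss1* in none.
Papss2, start 1 (chr19:32595465-32595714): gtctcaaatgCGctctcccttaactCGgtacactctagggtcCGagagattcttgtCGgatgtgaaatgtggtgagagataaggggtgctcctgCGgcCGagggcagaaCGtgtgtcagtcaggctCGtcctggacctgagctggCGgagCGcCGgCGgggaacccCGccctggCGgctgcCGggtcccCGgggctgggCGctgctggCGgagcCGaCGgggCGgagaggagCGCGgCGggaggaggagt
Papss2, start 2 (chr19:32619755-32620004): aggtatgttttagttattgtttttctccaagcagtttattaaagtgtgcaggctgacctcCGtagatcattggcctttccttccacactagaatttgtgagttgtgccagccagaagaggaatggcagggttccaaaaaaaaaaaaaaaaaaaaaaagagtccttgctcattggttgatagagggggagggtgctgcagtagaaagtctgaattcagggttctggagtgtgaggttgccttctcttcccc
Papss1, start 1 (chr3:131564518-131564767): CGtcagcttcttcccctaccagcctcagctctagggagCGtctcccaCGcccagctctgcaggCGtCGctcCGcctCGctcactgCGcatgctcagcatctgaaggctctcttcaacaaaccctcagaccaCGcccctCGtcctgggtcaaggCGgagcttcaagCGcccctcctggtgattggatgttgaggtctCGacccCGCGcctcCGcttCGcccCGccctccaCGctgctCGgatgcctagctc
Papss1, start 2 (chr3:131565782-131566031): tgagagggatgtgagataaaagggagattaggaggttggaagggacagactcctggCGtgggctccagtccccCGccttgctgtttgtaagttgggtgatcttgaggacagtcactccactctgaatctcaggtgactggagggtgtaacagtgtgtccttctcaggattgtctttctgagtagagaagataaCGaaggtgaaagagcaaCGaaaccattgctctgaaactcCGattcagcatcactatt
The sequence before the first start held 24 CG dinucleotides at 67.6% GC for *Papss2* and 20 at 65.2% GC for *Papss1*, and that before the second start held 1 at 43.2% GC and 5 at 48.8% GC, so the genes were alike in this. Over 50 starts of the 40 members in the table the median was 19.5 CG dinucleotides, against 15 for the 13983 starts of genes tested in the drug table. Reads were counted per gene, so which start was in use was not measured.

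The 300-base windows of the RefSeq table, from 250 bases before a start to 50 after it, were also searched on both strands for 3 short strings. The first was ACAAAG, a string of the SOX type. The second, of the same type, was ACAATG. The third was the TCF-type string ATCAAAG, whose last 5 letters are also the last 5 of the first string. Any of the 3 was present in 3 of the 50 member windows (6.0%), those of *Chst3*, *Slc35b3* and *Xylt2*, against 22.0% of the 13983 windows of genes tested in the drug table and 31.1% of all 32851 windows. None stood in the windows of *Papss2*, *Papss1* or *Extl1*. That says only that these letters are not in these windows.

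*Slc26a2*, the transporter that brings sulfate into chondrocytes, was read at 195, 181 and 198 CPM with siCtrl and at 203, 198 and 221 CPM with siTnks/2. DMSO libraries held *Slc26a2* at 11.6, 11.9 and 30.7 CPM, XAV939 libraries at 15.9, 30.9 and 29.2 and IWR-1 libraries at 70.4, 85.4 and 115. IWR-1 libraries stood above all others of the drug table, and DMSO replicate 3 lay among the XAV939 libraries. Its log2 fold change was 2.32 ± 0.39 (adjusted p = 0.00082) with IWR-1, whereas it was 0.49 ± 0.38 (adjusted p = 0.402) with XAV939 and 0.12 ± 0.07 (adjusted p = 0.261) with knockdown. Its starting level was far lower in the drug table, with 1.46 ± 0.883 RPKM (mean ± SD, n = 3) in DMSO libraries against 15.5 ± 0.71 in siCtrl libraries.

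*Slc26a2* has 12370 bases of summed exon, more than 94.8% of the genes tested. Without DMSO replicate 3, *Slc26a2* was called with XAV939 at 1.09 log2 (adjusted p = 0.030), and its value with IWR-1 was 2.93 (adjusted p = 6.40e-05). That fit kept replicate 3 of XAV939 and of IWR-1, which also stood higher within their groups as exon length rose. The part of length in the values was not tested. *Slc35b2* and *Slc35b3*, which carry PAPS into the Golgi, were not called (log2 fold changes between 0.07 and 0.37 over the 3 comparisons), although *Slc35b2* was called higher with knockdown under the block at 0.36 (adjusted p = 0.0104).

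**Figure D2:**
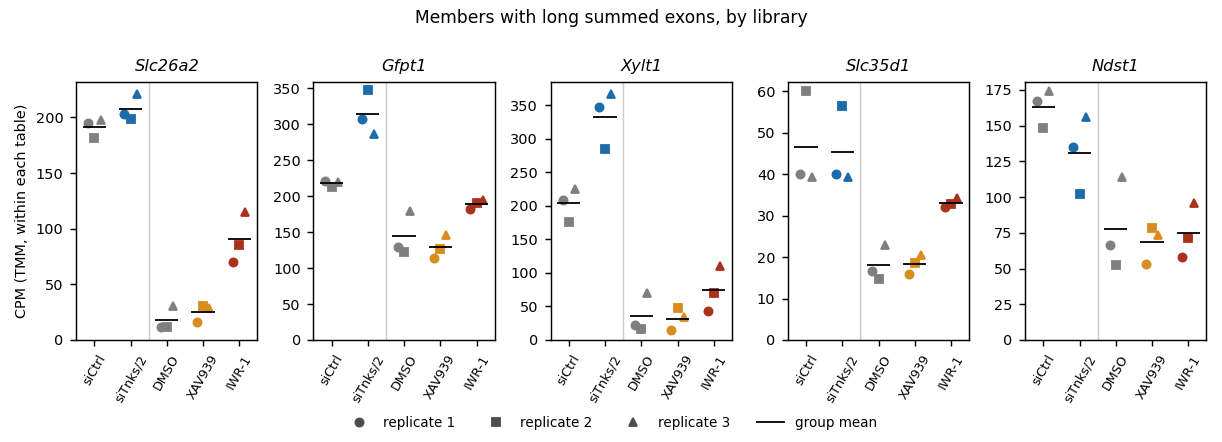
CPM of 5 members with long summed exons in each of the 15 libraries (circle, square and triangle for replicates 1, 2 and 3), with the group mean as a line and the siRNA and drug tables divided by a vertical line. DMSO replicate 3 is the highest DMSO library in all 5 panels, and *Slc26a2* with IWR-1 (70.4, 85.4 and 115 CPM) stands above the DMSO libraries. The 5 were picked as examples. In *Ext1* (8077 bases) and *Ext2* (7328 bases), not shown, DMSO replicate 3 was the lowest DMSO library, at 142 and 179 CPM.

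Sugar nucleotide supply split into genes that rose and genes that fell. *Ugdh*, the dehydrogenase that makes UDP-glucuronic acid and so feeds both chain types, was read at 189, 221 and 210.5 CPM with siCtrl and 144, 138 and 159 CPM with siTnks/2. DMSO libraries held *Ugdh* at 428, 387 and 439.7 CPM, XAV939 libraries at 218, 165 and 267 and IWR-1 libraries at 202, 196 and 222. All treated libraries lay below all controls of their table. *Ugdh* fell in each comparison, with log2 fold changes of -0.49 ± 0.08 (adjusted p = 0.013) with knockdown, -0.95 ± 0.16 (adjusted p = 0.00248) with XAV939 and -1.02 ± 0.16 (adjusted p = 0.000513) with IWR-1. The inhibitor values differed from each other by -0.07, with an interval of -0.37 to 0.24. All intervals here are without adjustment and use a normal multiplier, so with few libraries they are too narrow.

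*Gfpt1* and *Gfpt2* encode the transaminases that open the hexosamine pathway toward the amino sugars. *Gfpt2* was read at 93, 108 and 90.4 CPM with siCtrl and 127, 164 and 116 CPM with siTnks/2. DMSO libraries held *Gfpt2* at 31.8, 40.2 and 40.9 CPM, XAV939 libraries at 50.4, 59.7 and 54.3 and IWR-1 libraries at 96.4, 100.5 and 89.5. Treated and control libraries did not overlap in either table, and the log2 fold changes were 0.54 ± 0.12 (adjusted p = 0.0104) with XAV939 and 1.34 ± 0.12 (adjusted p = 1.64e-05) with IWR-1. With knockdown it was 0.48 ± 0.14 log2 (adjusted p = 0.0533), and the fit with the block called it higher at 0.47 (adjusted p = 0.00493). *Gfpt1* was read at 221, 212 and 220.1 CPM with siCtrl and 308, 347 and 287 CPM with siTnks/2, without overlap, and rose by 0.53 ± 0.08 log2 (adjusted p = 0.0099). DMSO libraries held *Gfpt1* at 129, 123 and 179.9 CPM, XAV939 libraries at 114, 126 and 146 and IWR-1 libraries at 182, 189.8 and 195. *Gfpt1* was not called with XAV939 (-0.16 ± 0.15 log2, adjusted p = 0.479) or IWR-1 (0.39 ± 0.15, adjusted p = 0.0619), and the latter was called under the block (0.41, adjusted p = 0.00591) and without DMSO replicate 3 (0.58, adjusted p = 0.00354).

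*Ugp2*, which makes UDP-glucose, rose slightly with knockdown (0.27 ± 0.05 log2, adjusted p = 0.019) and was not called with XAV939 (-0.59 ± 0.21, adjusted p = 0.0777), although the replicate block called it lower (-0.63, adjusted p = 0.0165). *Uxs1*, which makes UDP-xylose for the linker, rose with IWR-1 (0.38 ± 0.08 log2, adjusted p = 0.00342) and, under the block, with knockdown (0.21, adjusted p = 0.0194), and *Slc35d1*, a carrier of UDP-sugars used for chondroitin, rose with IWR-1 as well (0.86 ± 0.16, adjusted p = 0.00172). *Slc35d1* was read at 16.7, 14.8 and 23 CPM with DMSO and at 32.2, 32.7 and 34.3 CPM with IWR-1, so that its groups did not overlap. *Uap1*, which makes the UDP-activated N-acetylhexosamines, fell with IWR-1 (-0.66 ± 0.12 log2, adjusted p = 0.00161) from 81.6, 87.3 and 92.9 CPM with DMSO to 55.1, 55 and 55.6 CPM, and the block called it lower with XAV939 too (-0.34, adjusted p = 0.0226). Along the hexosamine route with IWR-1, *Gfpt2* at the start was thus higher and *Uap1* at the end lower. *Gnpnat1* and *Pgm3*, which are not members, act between them. Both were called higher with IWR-1, by 0.43 ± 0.14 log2 (adjusted p = 0.031) and 0.44 ± 0.09 (adjusted p = 0.0025), so *Uap1* alone of these genes fell.

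In linker assembly, 2 of 6 genes were called higher with siTnks/2, 1 under XAV939 and 3 under IWR-1, and 1 was called lower with each inhibitor. Of all genes tested, 10.4, 7.57 and 16.2% were called higher with knockdown, XAV939 and IWR-1, and 7.61, 9.85 and 20.2% lower. Counts over so few genes are descriptions without a test. *Fam20b*, the kinase that phosphorylates the xylose of the linker, was read at 189, 192 and 182 CPM with siCtrl and 249.9, 260.4 and 237 CPM with siTnks/2. DMSO libraries held *Fam20b* at 91.5, 102 and 107 CPM, XAV939 libraries at 122, 137 and 132 and IWR-1 libraries at 181, 192 and 174. The groups did not overlap, with DMSO lowest, XAV939 next and IWR-1 highest. *Fam20b* rose by 0.41 ± 0.06 log2 (adjusted p = 0.00919) with knockdown, 0.38 ± 0.10 (adjusted p = 0.0224) with XAV939 and 0.86 ± 0.10 (adjusted p = 7.23e-05) with IWR-1.

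*Xylt1* and *Xylt2*, the xylosyltransferases that begin the linker, differed. *Xylt1* was read at 209, 176 and 226 CPM with siCtrl and 348, 285 and 367 CPM with siTnks/2, without overlap, and rose by 0.71 ± 0.13 log2 (adjusted p = 0.0142) with knockdown. DMSO libraries held *Xylt1* at 22.5, 16 and 70.4 CPM, XAV939 libraries at 14.8, 47 and 34.1 and IWR-1 libraries at 42.6, 69.6 and 111. The drug groups overlapped, and *Xylt1* was not called with XAV939 (-0.19 ± 0.56 log2, adjusted p = 0.85) or IWR-1 (1.03 ± 0.56, adjusted p = 0.178). The value with IWR-1 was 1.94 log2 (adjusted p = 0.0106) without DMSO replicate 3 and 1.10 (adjusted p = 0.0182) with the replicate block. *Xylt1* has 9651 bases of summed exon, more than 89.1% of the genes tested. *Xylt2* was read at 29.7, 29.3 and 27 CPM with siCtrl and 30.2, 31.8 and 27.3 CPM with siTnks/2, which overlapped. DMSO libraries held *Xylt2* at 38.5, 36.3 and 36.1 CPM, XAV939 libraries at 29.9, 31 and 30.1 and IWR-1 libraries at 25.5, 26.3 and 25.7, each group apart from the others. *Xylt2* fell, with log2 fold changes of -0.29 ± 0.09 (adjusted p = 0.0451) with XAV939 and -0.52 ± 0.09 (adjusted p = 0.000877) with IWR-1, and the former call was kept in only 2 of the 9 fits that left out 1 library.

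The other linker enzymes add the galactoses (*B4galt7*, *B3galt6*) and the glucuronic acid (*B3gat3*). With IWR-1, *B4galt7* rose by 0.40 ± 0.09 log2 (adjusted p = 0.00683) and *B3gat3* by 0.35 ± 0.11 (adjusted p = 0.0343), and *B3galt6* was not called (0.31 ± 0.12, adjusted p = 0.070), but was under the block (0.32, adjusted p = 0.0346). With XAV939 none of the 3 was called, at log2 fold changes of 0.23, 0.26 and 0.30, although the block called *B3gat3* higher (0.31, adjusted p = 0.0215). With knockdown none was called either (0.25, 0.07 and 0.39), although the block called *B4galt7* (0.23 log2, adjusted p = 0.048) and *B3gat3* (0.37, adjusted p = 0.0138).

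Of 6 genes of the chondroitin chain, 2 were called higher and 1 lower with knockdown, 1 and 0 with XAV939, and 3 and 1 with IWR-1. The shares of all genes tested were 10.4% higher and 7.61% lower, 7.57 and 9.85%, and 16.2 and 20.2%, in the same order. *Csgalnact1*, which adds the first N-acetylgalactosamine, was read at 205, 205 and 206 CPM with siCtrl and 289, 275 and 259 CPM with siTnks/2. DMSO libraries held *Csgalnact1* at 103, 114 and 123 CPM, XAV939 libraries at 156, 127 and 149 and IWR-1 libraries at 223, 236 and 209. Treated libraries lay above controls throughout, and the log2 fold change was 0.42 ± 0.06 (adjusted p = 0.0087) with knockdown and 0.98 ± 0.11 (adjusted p = 7.46e-05) with IWR-1. With XAV939 it was 0.35 ± 0.11 log2 (adjusted p = 0.0514), called under the block (0.35, adjusted p = 0.0253). *Csgalnact2*, its isoenzyme, was read at 49.5, 59.5 and 52.5 CPM with siCtrl and 49.9, 66.9 and 55.1 with siTnks/2. DMSO libraries held *Csgalnact2* at 54.2, 55.3 and 66.8 CPM, XAV939 libraries at 57.6, 40.9 and 65.6 and IWR-1 libraries at 53.8, 50.1 and 55.1, and all groups overlapped their controls. It was not called, with log2 fold changes of 0.09, -0.10 and -0.15.

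*Chsy1*, a chondroitin synthase, was read at 151, 164 and 139 CPM with siCtrl and 226, 319 and 197 CPM with siTnks/2. DMSO libraries held *Chsy1* at 166, 214 and 186 CPM, XAV939 libraries at 187, 186 and 186 and IWR-1 libraries at 271, 289 and 252. The XAV939 libraries lay inside the DMSO range, and the other treated groups lay above their controls. *Chsy1* rose by 0.71 ± 0.18 log2 (adjusted p = 0.036) with knockdown and 0.52 ± 0.11 (adjusted p = 0.00371) with IWR-1, and its value with XAV939 was -0.02 ± 0.11 (adjusted p = 0.928). *Chsy3*, the second synthase, fell with knockdown (-0.28 ± 0.07 log2, adjusted p = 0.0392) and rose with IWR-1 (0.68 ± 0.13, adjusted p = 0.00185). It was read at 41.6, 47.7 and 41.8 CPM with siCtrl and 36.2, 36.6 and 35 with siTnks/2, then at 18, 20.1 and 23.3 with DMSO and 32.2, 34 and 32.1 with IWR-1, so that both changes kept the groups apart. The knockdown call of *Chsy3* was kept in 1 of the 6 fits that left out a library, that without siTnks/2 replicate 2.

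The polymerizing factors behaved otherwise. *Chpf* was called with XAV939 only (0.50 ± 0.14 log2, adjusted p = 0.0356), in 2 of the 9 fits that left out a library, and its value with IWR-1 was 0.26 ± 0.14 (adjusted p = 0.19). The block called it higher with knockdown as well (0.26 log2, adjusted p = 0.0226). The direct difference between the inhibitors was -0.24 ± 0.14 log2 (adjusted p = 0.281), so the data do not show that *Chpf* responded to one and not the other. *Chpf2* fell with IWR-1 (-0.29 ± 0.09 log2, adjusted p = 0.0241). *Chpf2* shares 2466 bases of exon with *Smarcd3* on the opposite strand, and the strand setting of the counting is not given in the sources used here.

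Modification of chondroitin and dermatan held 9 tested genes, of which 1 was called higher and 2 lower with knockdown, 0 and 2 under XAV939, and 1 and 4 under IWR-1. For all genes tested these shares were 10.4 and 7.61%, 7.57 and 9.85%, and 16.2 and 20.2%. The 4-O-sulfotransferases *Chst11*, *Chst12* and *Chst13* sulfate the N-acetylgalactosamine of chondroitin. *Chst11* was read at 417, 505 and 414 CPM with siCtrl and 593, 804 and 549.6 CPM with siTnks/2. DMSO libraries held *Chst11* at 213, 236 and 242 CPM, XAV939 libraries at 231, 346 and 243 and IWR-1 libraries at 349.8, 395 and 342. IWR-1 and siTnks/2 libraries lay above their controls and XAV939 libraries overlapped theirs. The log2 fold change was 0.65 ± 0.15 (adjusted p = 0.00627) with IWR-1, 0.24 ± 0.15 (adjusted p = 0.292) with XAV939 and 0.54 ± 0.16 (adjusted p = 0.0557) with knockdown, which the block moved to 0.53 (adjusted p = 0.00527). *Chst12* was read at 90.4, 98.4 and 87.9 CPM with siCtrl and 92.2, 112 and 86.8 CPM with siTnks/2, which overlapped. DMSO libraries held *Chst12* at 105, 102 and 81.1 CPM, XAV939 libraries at 95.1, 84.2 and 86 and IWR-1 libraries at 59.8, 60.9 and 59.4. It fell with IWR-1 (-0.68 ± 0.11 log2, adjusted p = 0.000767), as *Chst11* rose. *Chst13* was at 0 to 4 counts in every library and was not tested.

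The 6-O-sulfotransferases *Chst3* and *Chst7* were weakly expressed. *Chst7* was read at 5.72, 4.62 and 5.76 CPM with siCtrl and 2.5, 1.46 and 3.39 CPM with siTnks/2, without overlap, and fell (-1.11 ± 0.28 log2, adjusted p = 0.0392). DMSO libraries held *Chst7* at 4.15, 4.45 and 3.43 CPM, XAV939 libraries at 4.8, 5.37 and 4.38 and IWR-1 libraries at 3.84, 3.34 and 3.94. The drug groups overlapped, except that IWR-1 libraries lay below all XAV939 libraries. *Chst7* was not called with XAV939 (0.27 ± 0.16 log2, adjusted p = 0.265) or IWR-1 (-0.11 ± 0.16, adjusted p = 0.624). *Chst3* was read at 4.01, 4.58 and 5.45 CPM with siCtrl and 3.5, 6.17 and 5.58 CPM with siTnks/2. DMSO libraries held *Chst3* at 3.6, 2.76 and 4.37 CPM, XAV939 libraries at 1.56, 2.06 and 2.78 and IWR-1 libraries at 2.59, 2.54 and 3.16, and the block called it lower with XAV939 (-0.74 log2, adjusted p = 0.00712). Per length, the 4-O enzymes made up 97.0 to 99.2% of the summed RPKM of the 5 genes in every library, so that the 6-O genes were a small part of the transcripts throughout. The share lay between 97 and 97.9% with siCtrl and between 98.3 and 99.2% with siTnks/2.

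**Figure D3:**
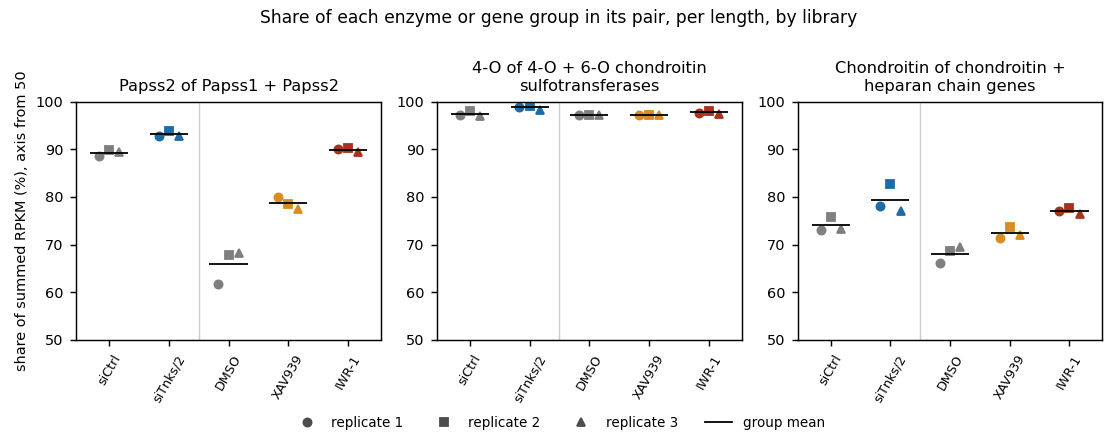
Share of summed RPKM in each of the 15 libraries (circle, square and triangle for replicates 1, 2 and 3, line for the group mean) of *Papss2* among the PAPS synthases, of 4-O among 4-O and 6-O chondroitin sulfotransferases, and of *Chsy1*, *Chsy3*, *Chpf* and *Chpf2* among these and *Ext1* and *Ext2*, on axes that start at 50%. The *Papss2* share climbs from 61.7 to 68.2% with DMSO to 89.4 to 90.4% with IWR-1, while the 4-O share stays above 97.0% in all libraries.

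*Ust*, which sulfates the uronic acid of chondroitin and dermatan, was read at 6.07, 5.4 and 7.56 CPM with siCtrl and 9.86, 9.52 and 11.4 CPM with siTnks/2. DMSO libraries held *Ust* at 12.3, 11.9 and 13.7 CPM, XAV939 libraries at 8.65, 7.69 and 9.23 and IWR-1 libraries at 7.03, 7.45 and 7.97. The groups did not overlap in either table, but knockdown libraries were the higher ones and inhibitor libraries the lower ones. *Ust* rose by 0.69 ± 0.15 log2 (adjusted p = 0.0257) with knockdown and changed by -0.56 ± 0.12 (adjusted p = 0.0108) with XAV939 and -0.75 ± 0.12 (adjusted p = 0.000793) with IWR-1. Tested directly, the XAV939 effect minus the knockdown effect was -1.27 ± 0.19 log2 (adjusted p = 0.00094), and the IWR-1 effect minus the knockdown effect was -1.45 ± 0.19 (adjusted p = 0.000115).

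*Chst15*, which adds a second sulfate to 4-sulfated N-acetylgalactosamine, had a like split. It was read at 5.19, 5.8 and 4.84 CPM with siCtrl and 6.59, 7.77 and 7.15 CPM with siTnks/2. DMSO libraries held *Chst15* at 7.01, 6.98 and 7.57 CPM, XAV939 libraries at 2.64, 5.33 and 3.61 and IWR-1 libraries at 3.34, 4.04 and 3.57. Both inhibitor groups lay below DMSO and the knockdown libraries above siCtrl. *Chst15* changed by -0.90 ± 0.22 log2 (adjusted p = 0.0176) with XAV939 and -0.97 ± 0.22 (adjusted p = 0.00535) with IWR-1, and was not called with knockdown (0.44 ± 0.12, adjusted p = 0.0525), but was under the block (0.44, adjusted p = 0.0248). The effects differed from that of knockdown by -1.35 ± 0.27 log2 (adjusted p = 0.0059) for XAV939 and -1.42 ± 0.27 (adjusted p = 0.00176) for IWR-1.

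Among genes of dermatan sulfate, *Chst14*, its 4-O-sulfotransferase, fell with knockdown (-0.43 ± 0.07 log2, adjusted p = 0.0125), from 37.9, 41.9 and 38.6 CPM with siCtrl to 29.5, 31 and 27.6 with siTnks/2. *Chst14* was not called with IWR-1 (-0.31 ± 0.12 log2, adjusted p = 0.0582), but was under the block (-0.31, adjusted p = 0.0288) and without DMSO replicate 3 (-0.43, adjusted p = 0.00694). *Dse* and *Dsel* encode the epimerases that turn chondroitin into dermatan. *Dsel* fell with IWR-1 (-0.65 ± 0.17 log2, adjusted p = 0.014), with XAV939 under the block (-0.42, adjusted p = 0.0243), and was not called with knockdown (0.10 ± 0.09, adjusted p = 0.452). *Dse* was not called in any comparison without the block (-0.47, -0.12 and 0.03), which gave -0.49 log2 (adjusted p = 0.0219) with knockdown.

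**Figure D4:**
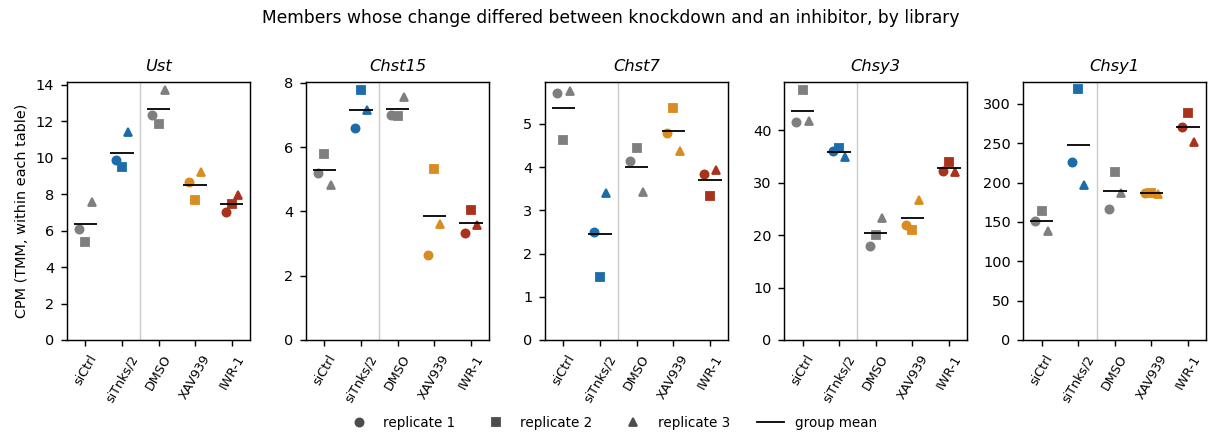
CPM in each of the 15 libraries (circle, square and triangle for replicates 1, 2 and 3, line for the group mean) of 5 members whose response to knockdown differed by test from that to at least 1 inhibitor, with the siRNA and drug tables divided by a vertical line. *Ust* and *Chst15* lie higher with siTnks/2 and lower with both inhibitors, while *Chst7* falls with siTnks/2 alone among the called changes.

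The heparan chain held the gene with the largest log2 fold change of all members for either inhibitor, *Extl1*. Without DMSO replicate 3, *Slc26a2* came first with IWR-1, at 2.93 log2 against 2.38 for *Extl1*. *Extl1*, an exostosin-like N-acetylglucosaminyltransferase, was read at 134, 142 and 134 CPM with siCtrl and 277, 327 and 243 CPM with siTnks/2. DMSO libraries held *Extl1* at 26.5, 50.2 and 32.7 CPM, XAV939 libraries at 101, 181 and 91.4 and IWR-1 libraries at 179, 243 and 179. Treated libraries lay well above controls, while the ranges of the inhibitors overlapped. *Extl1* rose by 1.05 ± 0.11 log2 (adjusted p = 0.00384) with knockdown, 1.77 ± 0.29 (adjusted p = 0.00242) with XAV939 and 2.46 ± 0.30 (adjusted p = 0.000107) with IWR-1, or 2.06-fold, 3.41-fold and 5.49-fold. The inhibitors differed by 0.69 ± 0.28 log2 (adjusted p = 0.122), with an interval of 0.14 to 1.24. The 250 bases before the start of *Extl1* are given on the minus strand of GRCm38.p6 with CG dinucleotides in capitals. They are shown as those of the member that inhibitors moved most with all drug libraries in the fit, and hold 8 such dinucleotides at 53.2% GC.
Extl1 (chr4:134372548-134372797): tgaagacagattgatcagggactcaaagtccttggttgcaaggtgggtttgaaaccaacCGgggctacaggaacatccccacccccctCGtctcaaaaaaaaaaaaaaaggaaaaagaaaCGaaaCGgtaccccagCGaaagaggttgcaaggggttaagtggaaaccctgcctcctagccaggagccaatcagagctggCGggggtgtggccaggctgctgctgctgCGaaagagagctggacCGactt

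*Ext1* and *Ext2* form the polymerase that extends heparan chains. *Ext1* fell with IWR-1 (-0.86 ± 0.13 log2, adjusted p = 0.00044), from 165, 145 and 142 CPM with DMSO to 80.3, 79 and 90.6 CPM, without overlap. With XAV939 it was called under the block (-0.41 log2, adjusted p = 0.0115), as it was with knockdown (-0.24, adjusted p = 0.0224). *Ext2* was not called, at log2 fold changes of -0.05, -0.01 and -0.12. *Extl3*, which starts heparan chains, and *Extl2*, which can end them, were not called either (between -0.22 and 0.24). Set against the polymerizing genes of chondroitin (*Chsy1*, *Chsy3*, *Chpf* and *Chpf2*), *Ext1* and *Ext2* made up the smaller share of summed RPKM. The chondroitin share lay between 66 and 69.6% with DMSO, 71.4 and 73.8% with XAV939 and 76.4 and 77.7% with IWR-1, ranges that did not meet. It lay between 73.1 and 75.9% with siCtrl and 77 and 82.7% with siTnks/2, also without overlap. The shares are descriptions without a test, and they depend on the exon lengths used.

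In heparan modification, *Glce* was the only gene called higher, and *Sulf1* and *Hs6st2* were called lower. *Sulf1*, which removes 6-O-sulfates from heparan chains outside the cell, was read at 354, 489 and 348 CPM with siCtrl and 218, 181 and 242 CPM with siTnks/2. DMSO libraries held *Sulf1* at 150.5, 122 and 183 CPM, XAV939 libraries at 55.5, 59.7 and 75.9 and IWR-1 libraries at 74.1, 66.8 and 95.3. No treated library reached the lowest control of its table. *Sulf1* fell in all 3 comparisons, with -0.89 ± 0.16 log2 (adjusted p = 0.0155) for knockdown, -1.25 ± 0.18 (adjusted p = 0.00131) for XAV939 and -0.95 ± 0.18 (adjusted p = 0.00205) for IWR-1. *Sulf2*, the second sulfatase, was read at 239.8, 266 and 260.0 CPM with siCtrl and 216, 251 and 236 CPM with siTnks/2. DMSO libraries held *Sulf2* at 178, 168 and 193 CPM, XAV939 libraries at 157, 214 and 178 and IWR-1 libraries at 119, 141 and 155. *Sulf2* had -0.38 ± 0.14 log2 (adjusted p = 0.0521) with IWR-1, and the block called it lower (-0.38, adjusted p = 0.0127). It shares 154 bases of exon with *Ncoa3* on the opposite strand.

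*Hs6st2*, a 6-O-sulfotransferase of heparan, was read at 71.2, 65.2 and 80 CPM with siCtrl and 33.5, 14.9 and 43.3 CPM with siTnks/2. DMSO libraries held *Hs6st2* at 92.6, 89.2 and 95.3 CPM, XAV939 libraries at 87.9, 61.7 and 79.2 and IWR-1 libraries at 72.3, 59 and 70.3. All treated libraries lay below their controls, and siTnks/2 replicate 2 was the lowest of all 15. *Hs6st2* fell with knockdown (-1.23 ± 0.34 log2, adjusted p = 0.0478) and IWR-1 (-0.46 ± 0.13, adjusted p = 0.0203). With XAV939 it was not called (-0.28 ± 0.13 log2, adjusted p = 0.18), but was under the block (-0.29, adjusted p = 0.0345). *Glce*, which turns glucuronic into iduronic acid, rose by 0.40 ± 0.08 log2 (adjusted p = 0.0201) with knockdown and 0.84 ± 0.11 (adjusted p = 0.000166) with IWR-1, and was not called with XAV939 (0.19 ± 0.11, adjusted p = 0.247). It was read at 97.5, 86.9 and 97.9 CPM with siCtrl, 133, 114 and 125 with siTnks/2, 53.6, 57 and 68.5 with DMSO and 103, 109 and 108 with IWR-1.

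The N-deacetylase/N-sulfotransferases *Ndst1* and *Ndst2*, the 2-O-sulfotransferase *Hs2st1* and the 6-O-sulfotransferase *Hs6st1* were not called in the 3 comparisons, with log2 fold changes between -0.32 and 0.20. Under the block, *Ndst1* was called lower with knockdown (-0.33 log2, adjusted p = 0.0249), *Hs2st1* higher with knockdown (0.18, adjusted p = 0.039) and *Hs6st1* higher with knockdown (0.20, adjusted p = 0.0318) and lower with IWR-1 (-0.31, adjusted p = 0.0175). *Hs3st1*, a 3-O-sulfotransferase, was read at 0.902, 1.92 and 1.1 CPM with siCtrl and 0.868, 2.07 and 1.04 CPM with siTnks/2, and had too few counts in the drug table to be tested.

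Across the 3 comparisons, 5 of the 48 members were called in the same direction each time. *Papss2*, *Extl1* and *Fam20b* were higher and *Ugdh* and *Sulf1* were lower. With the replicate block these were 10, adding *Gfpt2*, *Csgalnact1* and *B3gat3* as higher and *Ext1* and *Hs6st2* as lower, and the groupings that follow are without the block. Both inhibitors were set against the same DMSO libraries, so their calls are not independent of each other. The share of all genes tested that were called alike in all 3 comparisons was not counted, so the 5 and the 10 stand without a background share. *Csgalnact1*, *Chsy1* and *Glce* were called higher with knockdown and IWR-1, *Gfpt2* higher with both inhibitors, and *Chst15* and *Xylt2* lower with both. *Ust* was called higher with knockdown and lower with both inhibitors, *Chsy3* lower with knockdown and higher with IWR-1, *Hs6st2* lower with knockdown and IWR-1, and *Chpf* higher with XAV939 alone. *Slc26a2*, *Uxs1*, *Slc35d1*, *B4galt7*, *B3gat3* and *Chst11* were called higher with IWR-1 alone, and *Uap1*, *Chpf2*, *Chst12*, *Dsel* and *Ext1* lower with IWR-1 alone. *Ugp2*, *Gfpt1* and *Xylt1* were called higher and *Chst7* and *Chst14* lower with knockdown alone. A missing call does not show that a change was absent. With the block, *Xylt1* was called with knockdown (0.71 log2, adjusted p = 0.00153) and with IWR-1 (1.10, adjusted p = 0.0182). A further 15 members were tested throughout and called in none, 1 (*Hs3st1*) was tested and not called in the siRNA table only, and 1 (*Chst13*) was tested in none.

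**Figure D5:**
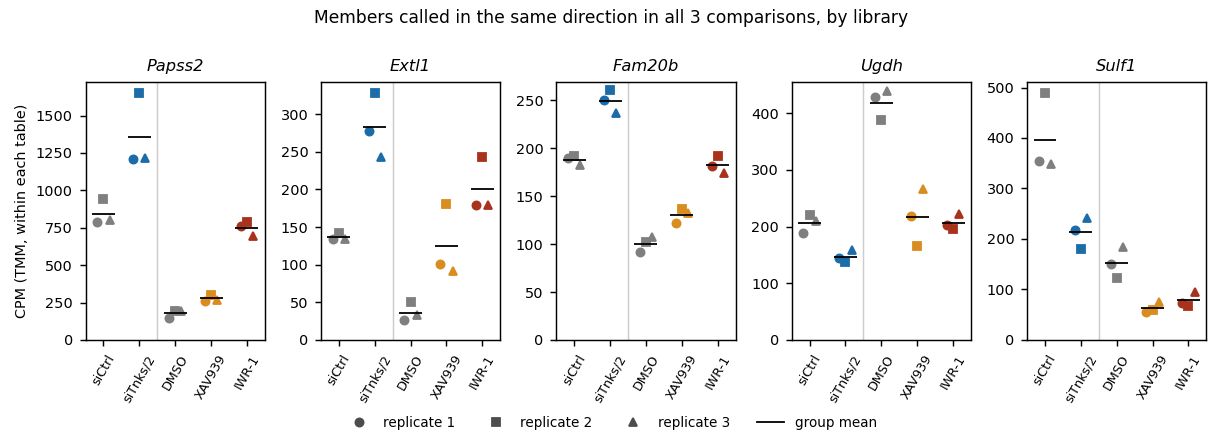
CPM in each of the 15 libraries (circle, square and triangle for replicates 1, 2 and 3, line for the group mean) of the 5 members called in the same direction in all 3 comparisons, with the siRNA and drug tables divided by a vertical line. Every treated library of *Papss2*, *Extl1* and *Fam20b* lies above, and of *Ugdh* and *Sulf1* below, every control library of its table.

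The inhibitors were given at the same dose for the same time, so their effects were compared directly over 46 members, with p-values adjusted over all genes of the table. IWR-1 minus XAV939 was called higher for 11 members (23.9%, against 7.37% of all genes tested) and lower for 2 (4.35%, against 10.2%). The 11 were *Slc26a2*, *Papss2*, *Uxs1*, *Gfpt1*, *Gfpt2*, *Slc35d1*, *Fam20b*, *Csgalnact1*, *Chsy1*, *Chsy3* and *Glce*, and the 2 were *Chst12* and *Ext1*. By step these were 2 of 5 genes of sulfate and PAPS supply, 4 of 7 of sugar nucleotide supply, 1 of 6 of the linker and 3 of 6 of the chondroitin chain. The difference was 1.83 ± 0.38 log2 (adjusted p = 0.00763) for *Slc26a2*, 1.43 ± 0.13 (adjusted p = 0.000104) for *Papss2*, 0.85 ± 0.16 (adjusted p = 0.00484) for *Slc35d1* and 0.80 ± 0.12 (adjusted p = 0.00131) for *Gfpt2*. *Chsy1* differed by 0.54 ± 0.11 log2 (adjusted p = 0.00744), *Chsy3* by 0.50 ± 0.13 (adjusted p = 0.0224) and *Chst12* by -0.56 ± 0.11 (adjusted p = 0.00646). *Ust*, which fell with both, differed by -0.19 on the log2 scale with an interval of -0.43 to 0.06. *Sulf1* differed by 0.31 on the log2 scale with an interval of -0.05 to 0.66. With the replicate block 21 members were called (45.7%, against 30.7% of all genes tested), 15 higher and 6 lower. Those it added were *Xylt1* (1.18 log2, adjusted p = 0.0219), *Extl1* (0.74, adjusted p = 0.000619), *Chst11* (0.42, adjusted p = 0.0127) and *Sulf1* (0.30, adjusted p = 0.0289) as higher with IWR-1, and *Sulf2* (-0.40, adjusted p = 0.0171), *Uap1* (-0.32, adjusted p = 0.034), *Extl3* (-0.29, adjusted p = 0.0487) and *Ndst2* (-0.25, adjusted p = 0.0435) as lower. Calls were kept in all 9 fits that left out 1 library for 9 of the 13 members, the others being *Ext1* (5), *Gfpt1* (4), *Chsy3* (4) and *Uxs1* (2).

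The knockdown effect was set against each inhibitor's effect in 1 model over the 15 libraries. The XAV939 effect was called higher than the knockdown effect for 1 of 47 members (2.13%, against 5.4% of all genes tested), *Chst7*, and lower for 5 (10.6%, against 8.07%), namely *Ugp2*, *Gfpt1*, *Chsy1*, *Chst15* and *Ust*. *Chst7*, *Chst15* and *Ust* kept this call in all 15 fits that left out 1 library, *Chsy1* in 10, and *Ugp2* and *Gfpt1* in 9. The IWR-1 effect was called higher than the knockdown effect for 10 members (21.3%, against 10.5%) and lower for 7 (14.9%, against 13.9%). The 10 included *Slc26a2* (2.19 ± 0.45 log2, adjusted p = 0.00279), *Papss2* (1.37 ± 0.20, adjusted p = 0.000267), *Extl1* (1.40 ± 0.35, adjusted p = 0.00988) and *Chsy3* (0.95 ± 0.16, adjusted p = 0.00055). Of the 17, 12 kept their call in all 15 fits that left out 1 library, the others being *Fam20b* (13), *Ext1* (13), *Chst7* (8), *Slc35d1* (7) and *Glce* (4). With the block, 15 members differed for XAV939 (31.9%, against 28.2% of all genes tested) and 22 for IWR-1 (46.8%, against 36.3%). It added *Ugdh* for both inhibitors (-0.49 log2, adjusted p = 0.0205 for XAV939 and -0.54 (adjusted p = 0.00975) for IWR-1) and *Hs6st2* for both (1.03, adjusted p = 0.0067 and 0.86 (adjusted p = 0.0121)). For XAV939 it also added *Extl1* (0.71 log2, adjusted p = 0.00631), *Chsy3* (0.45, adjusted p = 0.0206), *Chst3* (-0.85, adjusted p = 0.0173), *Dsel* (-0.54, adjusted p = 0.0251), *Uap1* (-0.39, adjusted p = 0.0329), *Xylt2* (-0.35, adjusted p = 0.0231) and *Hs2st1* (-0.35, adjusted p = 0.0279). For IWR-1 it added *Hs6st1* (-0.52 log2, adjusted p = 0.0039), *Dse* (0.51, adjusted p = 0.00732) and *Chpf2* (-0.37, adjusted p = 0.0144).

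The siRNA and drug tables differ in their starting levels, with *Papss2* at 227 ± 23.2 RPKM in siCtrl and 48 ± 7.41 in DMSO libraries (mean ± SD, n = 3), so its larger fold with IWR-1 began from a lower level. *Extl1* lay at 31.6 ± 0.984 RPKM with siCtrl and 8.42 ± 2.84 with DMSO, and reached 65.2 ± 9.83 with siTnks/2 and 46.3 ± 8.49 with IWR-1. *Papss2* reached 201 ± 12.3 RPKM with IWR-1, below its mean in the siCtrl libraries.

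Some members stand on gene lists that the study drew from other data. Its list of SOX9 targets, derived from published SOX9 binding and deletion data, holds 6 members, *Gfpt1*, *Papss2*, *Slc26a2*, *Xylt1*, *Extl1* and *Chst11*. Of these 6, 4 were called higher with siTnks/2, 2 under XAV939 and 4 under IWR-1, and 0 were called lower in any of the 3. Of the other members tested, 6 of 41, 3 of 40 and 10 of 40 were called higher and 6, 5 and 11 lower. Among all genes tested, 10.4%, 7.57% and 16.2% were called higher and 7.61%, 9.85% and 20.2% lower. The median log2 fold changes of the 6 were 0.61, 0.36 and 1.55, beside 0.08, -0.04 and -0.12 for the other members. Of the 7 members on its list of cartilage-signature genes (*Gfpt2*, *Papss2*, *Chst11*, *Sulf2*, *Extl1*, *Slc26a2* and *Xylt1*), 3, 3 and 5 were called higher and 0 lower, with medians of 0.54, 0.49 and 1.34. The 2 lists share 5 of these members. Of the tested members off the cartilage-signature list, 7 of 40, 2 of 39 and 9 of 39 were called higher and 6, 5 and 11 lower. Their medians were 0.09, -0.06 and -0.11. All these counts are descriptions without a test.

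Genes of neighbouring pathways were read in the same fits. Of all genes tested, 10.4, 7.57 and 16.2% were called higher with knockdown, XAV939 and IWR-1, and 7.61, 9.85 and 20.2% lower. Counts by list are descriptions without a test. Among 10 other genes of precursor and PAPS supply, 2 were called higher and 1 lower with knockdown, 1 and 1 with XAV939, and 6 and 1 with IWR-1. *Slc26a1*, a second sulfate transporter, rose by 1.12 ± 0.14 log2 (adjusted p = 0.0062) with knockdown and 1.58 ± 0.23 (adjusted p = 0.00035) with IWR-1, and *Slc13a4*, a sodium-sulfate cotransporter, rose by 1.83 ± 0.38 (adjusted p = 0.00314) with IWR-1. *Gpi1*, the isomerase that makes fructose 6-phosphate, the substrate of *Gfpt1* and *Gfpt2*, fell in all 3 comparisons, with -0.25 ± 0.06 log2 (adjusted p = 0.041) for knockdown, -0.52 ± 0.12 (adjusted p = 0.0164) for XAV939 and -0.92 ± 0.13 (adjusted p = 0.00023) for IWR-1. Among 12 other linker, chondroitin and heparan genes, 6 were tested with knockdown and 8 with the inhibitors, of which 0 were called with knockdown, 0 higher and 1 lower with XAV939, and 1 higher and 2 lower with IWR-1. The gene lower with XAV939 was *Hs3st6*, a 3-O-sulfotransferase (-1.71 ± 0.28 log2, adjusted p = 0.00237), and those lower with IWR-1 were *Hs3st6* (-2.64 ± 0.30, adjusted p = 7.46e-05) and *Pxylp1*, the phosphatase that reverses the action of *Fam20b* on xylose (-1.29 ± 0.13, adjusted p = 3.93e-05). The gene higher with IWR-1 was *Chst10* (0.75 ± 0.16 log2, adjusted p = 0.00412).

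Keratan sulfate genes, 8 in all, showed 2 higher and 1 lower of 7 tested with knockdown, 0 and 0 of 6 with XAV939, and 1 higher and 3 lower of 6 with IWR-1. *Chst1*, a keratan sulfotransferase, fell with knockdown (-1.68 ± 0.17 log2, adjusted p = 0.00368) and IWR-1 (-1.40 ± 0.26, adjusted p = 0.00146), whereas *B3gnt7*, which extends keratan chains, rose with IWR-1 (1.65 ± 0.42, adjusted p = 0.0101). *Chst5* rose with knockdown (1.64 ± 0.40 log2, adjusted p = 0.0357) and had too few counts in the drug table to be tested. Of 16 genes of glycosaminoglycan breakdown, 5 were higher and 2 lower with knockdown, 0 and 1 with XAV939, and 1 and 5 with IWR-1. The shares of all genes tested, beside both lists, were 10.4% higher and 7.61% lower, 7.57 and 9.85%, and 16.2 and 20.2%. *Hpse*, the heparanase that cuts heparan chains outside the cell, fell with XAV939 (-0.78 ± 0.21 log2, adjusted p = 0.0288) and IWR-1 (-1.06 ± 0.21, adjusted p = 0.00277), and *Naglu*, a lysosomal enzyme of heparan breakdown, fell with IWR-1 (-0.68 ± 0.10, adjusted p = 0.000365). *Hexa* went the other way with knockdown, where it rose by 0.71 ± 0.09 log2 (adjusted p = 0.00696).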

How the data were processed

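RNA was extracted with TRI reagent, and libraries were made with the TruSeq Stranded mRNA kit. Per the labels, the deposited values were whole-number read counts per gene, which the authors made from reads aligned to mm10; the submitters' processing notes name Trimmomatic 0.32, TopHat2 2.0.13 and HTSeq 0.6.1p1. Neither the gene models used for counting nor its strand option is given in the sources used here. A siRNA table of 6 libraries and a drug table of 9 were used, each with 24134 genes by Entrez ID, of which 24051 matched a symbol in RefSeq GRCm38.p6.

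The 48 members, their steps and the other lists were chosen with earlier results of these data known. Each table was tested with edgeR 4.0.16 in R 4.3.3 (TMM, filterByExpr, quasi-likelihood F test, prior count 2), with all groups of the table in the fit and Benjamini-Hochberg adjustment over all genes of the table. Differences between drug and knockdown effects were tested in 1 model over all 15 libraries. The SE is the absolute log2 fold change divided by the square root of F. Intervals are the estimate plus or minus 1.96 SE. This multiplier is that of the normal distribution, so with 3 libraries a group the intervals are narrower than the F test would give. RPKM used summed exon lengths of GENCODE M21, found for 21228 genes and all 48 members. Upstream sequences were from RefSeq, in which 40 members were found.

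Values per library were given for the 6 called members with the largest change in each comparison, for isoenzymes of 1 reaction and for members called in all 3 comparisons, and any other member could be named. Other lists were given by counts and up to 3 called genes, with *Gnpnat1* and *Pgm3* named besides for the hexosamine route.

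Same-numbered libraries were checked for pairing. The replicate numbers came from the labels, and deviations from the group means correlated in all 3 siRNA pairs (0.424 to 0.519) and all 9 drug pairs (0.143 to 0.553), above the limit of 0.1, so values with the replicate number as a block are given beside calls they changed. No 2 libraries of a group differed by less than sampling noise. Alternatives were RLE and upper-quartile scaling, no filter on low counts, at least 10 counts in every library, DESeq2 1.42.0, fits of only the groups compared, the block, and each library left out. Total counts limit the precision of weakly expressed members, and their spread between cultures is in the SE.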

Additional observations from a re-analysis of the deposited data

Results flagged for a closer look

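Effects of an inhibitor and of knockdown were set against each other in 1 model over the 15 libraries, and the 23 differences past an adjusted p of 0.05 among the members are listed here with their log2 values. For XAV939, 6 members differed from knockdown. *Chst7* had the only XAV939 effect above that of knockdown, by 1.36 ± 0.31 log2 (adjusted p = 0.0113). For *Ust* the difference was -1.27 ± 0.19 log2 (adjusted p = 0.00094), and for *Chst15* it was -1.35 ± 0.27 (adjusted p = 0.0059), both lower with XAV939. *Ugp2* (-0.88 ± 0.25 log2, adjusted p = 0.0328), *Chsy1* (-0.74 ± 0.21, adjusted p = 0.0304) and *Gfpt1* (-0.71 ± 0.19, adjusted p = 0.0261) also lay lower.

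For IWR-1, 17 members differed from knockdown. Of the 10 with the higher IWR-1 effect, sulfate supply held *Slc26a2* (2.19 ± 0.45 log2, adjusted p = 0.00279) and *Papss2* (1.37 ± 0.20, adjusted p = 0.000267). *Gfpt2* (0.85 ± 0.19 log2, adjusted p = 0.00433) and *Slc35d1* (0.89 ± 0.27, adjusted p = 0.0292) stood in sugar nucleotide supply, and *Fam20b* (0.45 ± 0.12, adjusted p = 0.0135) in the linker. *Chsy3* (0.95 ± 0.16 log2, adjusted p = 0.00055) fell with knockdown and rose with IWR-1, and *Csgalnact1* (0.55 ± 0.13, adjusted p = 0.00753) rose with both. *Chst7* (0.99 ± 0.31 log2, adjusted p = 0.0321), *Extl1* (1.40 ± 0.35, adjusted p = 0.00988) and *Glce* (0.43 ± 0.14, adjusted p = 0.0399) complete the 10. Of these, *Glce* kept its call in 4, *Slc35d1* in 7 and *Chst7* in 8 of the 15 fits that left out 1 library, and *Glce* also lost it with RLE scaling and without a filter on low counts.

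Of the 7 with the lower IWR-1 effect, 4 modify chondroitin or dermatan. They were *Ust* (-1.45 ± 0.19 log2, adjusted p = 0.000115), *Chst15* (-1.42 ± 0.27, adjusted p = 0.00176), *Dsel* (-0.76 ± 0.22, adjusted p = 0.020) and *Chst12* (-0.76 ± 0.16, adjusted p = 0.0027). *Uap1* (-0.70 ± 0.15 log2, adjusted p = 0.00358), *Ext1* (-0.63 ± 0.19, adjusted p = 0.0219) and *Xylt2* (-0.58 ± 0.11, adjusted p = 0.00182) were the others. The siRNA and drug tables differ in agent and starting levels, and the part of each in these differences cannot be told apart.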

How the results depend on the processing

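No called member changed sign under any alternative. Of the values of called members, 141 of 873 lost their call when 1 library was left out, 3 without a filter on low counts, 5 with only the groups compared, 1 with RLE scaling, 2 with upper-quartile scaling, and 0 with DESeq2, the stricter filter or the block. With the replicate number as a block, 29 members were called with knockdown, 19 with XAV939, 21 between the inhibitors and 15 in the difference of the XAV939 and knockdown effects, and the block ended no call. Leaving out 1 library, the knockdown count ran from 3 (without siCtrl replicate 1) to 20 (without siTnks/2 replicate 2), the count for the difference of XAV939 and knockdown effects from 3 (without siCtrl replicate 1 or siCtrl replicate 3) to 9 (without XAV939 replicate 3), and the median log2 fold change of the members with knockdown from 0.061 to 0.18. Without the length correction, shares of counts were 91.0% for *Papss2* with siCtrl, 94.3% with siTnks/2, 70.2% with DMSO, 81.8% with XAV939 and 91.6% with IWR-1. The 4-O share was then 98.1% with siCtrl, 97.7% with DMSO, 98.1% with XAV939 and 98.5% with IWR-1, and the chondroitin share 63.6, 69.7, 55.9, 60.6 and 66.4% in the order siCtrl, siTnks/2, DMSO, XAV939 and IWR-1. The cause of the lost calls was not tested beyond the loss of a library. With 3 libraries a group, small changes of weak genes (*Chst13* and *Hs3st1* among them) were below what these counts can show.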
